A study of Mus musculus with 13 samples.

Results

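Expression of 10 genes that mark T cells, natural killer (NK) cells and B cells was followed across the endometrium of 13 ovariectomized female C57BL/6 mice. The genes were Cd3d, Cd3e, Cd3g, Cd4, Cd8a, Gzma, Gzmb, Ncr1, Cd79a and Ms4a1. A gene was represented by the array features that carry its symbol and no other, and the brightest of them was taken if there were several. All 10 genes were measured, each by exactly 1 feature, out of 30142 genes with a feature of their own. All mice had both ovaries removed at 6 to 8 weeks of age and were then treated for 12 weeks. The MIX mice (n = 3) had a subcutaneous pellet releasing 17-β estradiol and a high-fat diet. The E2 mice (n = 4) had the pellet on normal chow, the HD mice (n = 3) had the high-fat diet without a pellet, and the CON mice (n = 3) had normal chow without a pellet. The study set out to find how gene expression in the lining responds to estradiol, to the diet and to both. Neither the estradiol dose of the pellet nor the make-up of the diets is stated in the labels. The opened uterus was scraped with the back of a scalpel, so a sample holds whatever cells came off with the lining.

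Lymphocytes are a minority of the cells in the uterine lining. T cells carry an antigen receptor that signals through the CD3 chains, and their coreceptors CD4 and CD8 bind major histocompatibility complex molecules of class II and class I. NK cells recognise targets through activating receptors such as NKp46, the product of Ncr1, and kill, as cytotoxic T cells do, with granzymes released from granules. Uterine NK cells are known for their expansion in the mouse uterus around implantation, when they line the decidual vessels, and B cells are sparse in this tissue. Estrogen given to ovariectomized rodents is known to draw leukocytes into the uterus, mostly macrophages and granulocytes.

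Values were the authors' log2 expression values made with RMA, 1 array per mouse, and the array medians lay between 4.48 and 4.71. A difference of 1 on this scale is a 2-fold change. In bulk tissue, fewer cells of a type and less RNA per cell cannot be told apart. Pearson correlations between arrays across all 65929 features were 0.960 to 0.995. The 12 epithelial markers (such as Epcam and Krt8) averaged 9.66 to 10.18 per mouse, and all 12 had group means above the array median in each of the 4 groups, as did all 11 measured stromal markers. All 3 MIX mice have lettered animal codes in their titles, whereas the other groups hold 7 mice with numbered and 3 with lettered codes. The labels do not say what the codes mean, and the fit therefore carried the style of the code as a covariate. A fitted MIX difference therefore departs somewhat from the plain difference of group means, and both are given. Some mice stood apart in their cell markers. MIX replicate 3 and E2 replicate 1 had the highest mean levels of the 14 pan-leukocyte markers, at 7.95 and 7.16, and of the 18 granulocyte and mast cell markers, at 6.73 and 5.99. MIX replicate 2 had the highest mean of the 11 measured endothelial markers, at 7.01 against at most 5.81 in any other mouse, and of the stromal markers, at 9.57.

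None of the 10 genes passed the test in any of the 8 comparisons made (limma, Benjamini-Hochberg adjusted over all 65929 features, threshold 0.05). Few features did: 0.00455% of all features passed in MIX against HD, 0.0167% in pellet against no pellet averaged over both diets, 0.00303% in MIX against CON, and 0 features in E2 against CON, HD against CON, MIX against E2, the averaged diet comparison and the interaction. In all 10 genes the mouse with the highest value carried an estradiol pellet, which was so for 53.5% of all features. MIX replicate 3 alone was highest in 6 of the 10 genes, against 9.09% of all features. CON replicate 3 was the lowest mouse in Cd3d, Cd3g, Cd4, Cd8a and Gzmb, and the lowest values of the other genes lay in other mice. The order of the group means differed between genes: MIX was highest in 8 genes and E2 in Cd8a and Gzmb, whereas E2 was lowest in Cd79a and Ms4a1.

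**Figure D1:**
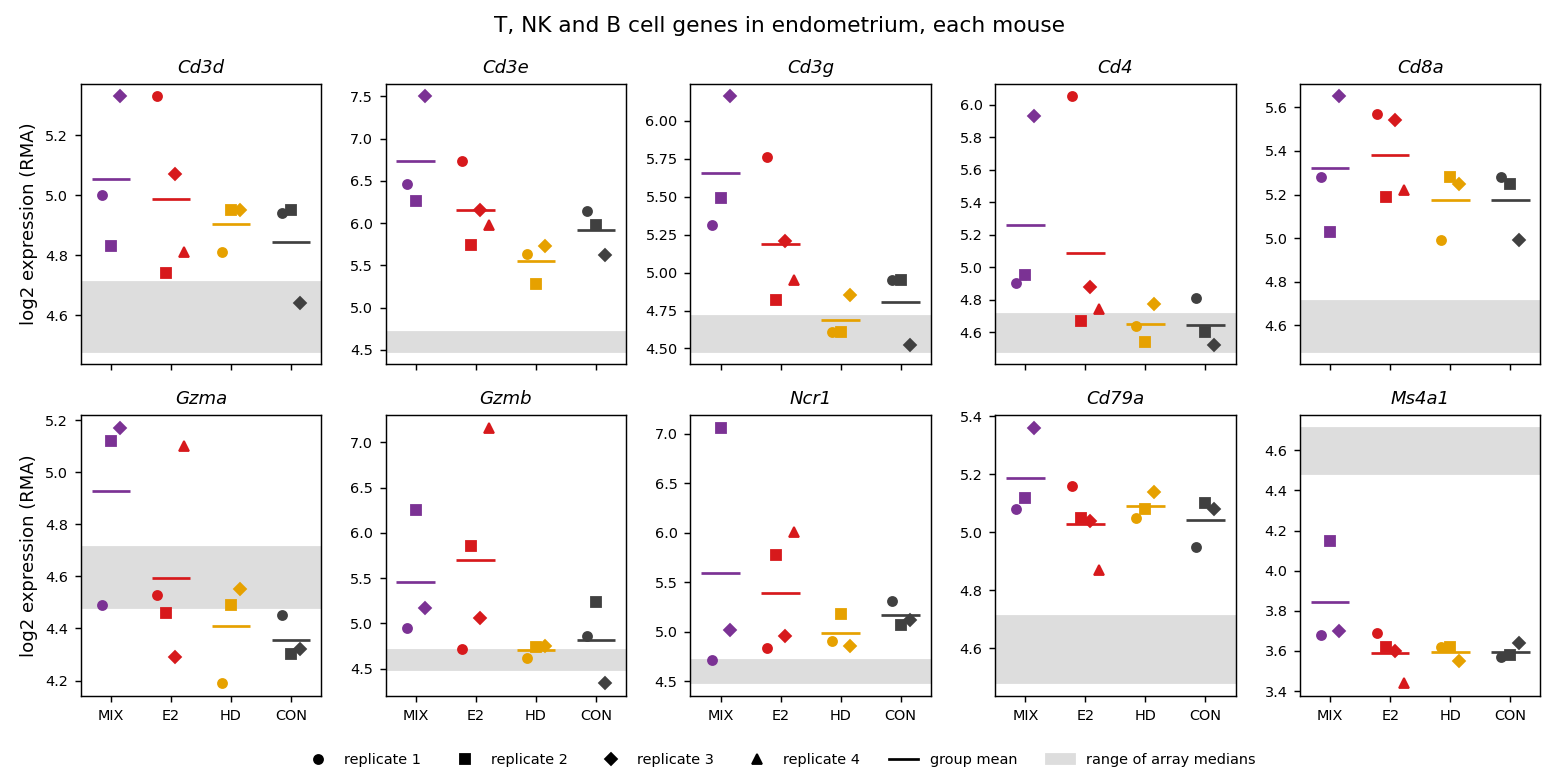
Level of each gene in each of the 13 mice, as log2 expression (RMA) on a separate vertical scale per gene, with MIX, E2, HD and CON from left to right. Symbols stand for replicates, horizontal lines for group means, and the grey band for the range of the 13 array medians (4.48 to 4.71). The Ms4a1 points all lie below the band, and MIX replicate 3 is the highest point in 6 of the 10 panels.

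The T cell receptor chains Cd3e and Cd3g had the largest fitted MIX minus HD differences of the 10 genes. Both encode chains of the CD3 complex that carry the immunoreceptor signalling motifs, and both lie beside Cd3d on chromosome 9. Their upstream sequences are shown because the values of these neighbouring genes went up and down together from mouse to mouse. The bases are from RefSeq on GRCm38.p6, 5′ to 3′ on the strand of the gene, restricted to those outside the annotated gene, at chr9:45009664-45009861 (minus strand) for Cd3e and chr9:44980432-44980681 (minus strand) for Cd3g. Capitals would mark the letters TGTGGT on either strand, the core bound by RUNX factors, which act in T and NK cell development. Neither window holds them.
Cd3e: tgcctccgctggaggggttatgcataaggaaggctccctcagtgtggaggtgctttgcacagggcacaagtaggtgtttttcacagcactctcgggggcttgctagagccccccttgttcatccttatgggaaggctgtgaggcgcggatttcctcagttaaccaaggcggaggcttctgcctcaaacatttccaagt
Cd3g: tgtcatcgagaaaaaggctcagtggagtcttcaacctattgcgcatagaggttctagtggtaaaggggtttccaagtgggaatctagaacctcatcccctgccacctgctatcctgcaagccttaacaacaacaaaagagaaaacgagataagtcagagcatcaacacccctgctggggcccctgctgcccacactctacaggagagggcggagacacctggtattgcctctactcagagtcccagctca

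Cd3e stood at 6.46, 6.26 and 7.50 in the MIX mice, at 6.74, 5.74, 6.15 and 5.98 in the E2 mice, at 5.64, 5.28 and 5.73 in the HD mice and at 6.14, 5.98 and 5.62 in the CON mice. Every MIX mouse was above every HD mouse and every CON mouse, while E2 and CON overlapped. The MIX mean was 6.74 ± 0.66 (SD, n = 3) and the HD mean 5.55 ± 0.24 (SD, n = 3), a plain difference of 1.19. The fitted difference was 1.28 ± 0.38 (SE), with a 95% interval of 0.44 to 2.12 and a limma adjusted p of 0.6725 (unadjusted p = 0.006885). In mice with lettered codes only, the MIX minus HD difference was 1.01, with a single HD mouse. Without MIX replicate 3 and E2 replicate 1, the mice highest in leukocyte markers, the fitted difference was 0.84. In the order of the group means (MIX, E2, CON, HD), no neighbouring groups were free of overlap.

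Cd3g followed the same course, with 5.31, 5.49 and 6.16 in MIX, 5.76, 4.82, 5.21 and 4.95 in E2, 4.61, 4.61 and 4.85 in HD, and 4.95, 4.95 and 4.52 in CON. Again all MIX mice lay above all HD and all CON mice. Its MIX mean was 5.65 ± 0.45 and its HD mean 4.69 ± 0.14 (SD, n = 3 each). The fitted MIX minus HD difference was 1.08 ± 0.30 (SE; 95% interval 0.41 to 1.75; plain difference 0.96), with a limma adjusted p of 0.6401. It was 0.77 without the mice highest in leukocyte markers. All 3 MIX mice and all 4 E2 mice were above the median of their own array, against 1 of 3 HD mice and 2 of 3 CON mice.

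Cd3d, the other CD3 gene among those followed here, spanned a narrower range, 4.64 to 5.33 across all mice. Cd247, a further chain of the complex, was counted in a gene list below. Cd3d stood at 4.83 and 5.33 in MIX replicates 2 and 3 with replicate 1 between them. Its values were 5.33, 4.74, 5.07 and 4.81 in E2, 4.81, 4.95 and 4.95 in HD, and 4.94, 4.95 and 4.64 in CON. MIX replicate 3 and E2 replicate 1 shared the top, and the groups overlapped in every comparison. The fitted MIX minus HD difference of Cd3d was 0.26 ± 0.19 (SE), with a 95% interval of -0.16 to 0.67. The 3 CD3 chain genes thus did not differ between MIX and HD by equal amounts on this scale; whether their differences differ from each other was not tested.

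The coreceptor Cd4, which marks helper T cells and is also found on some macrophages and dendritic cells, was set apart by single mice. It stood at 4.90, 4.95 and 5.93 in MIX, 6.05, 4.67, 4.88 and 4.74 in E2, 4.64, 4.54 and 4.77 in HD, and 4.81, 4.60 and 4.52 in CON. E2 replicate 1 and MIX replicate 3 were about 1 unit above every other mouse, and the MIX mice were all above the HD and the CON mice. The fitted MIX minus HD difference was 0.72 ± 0.41 (SE; 95% interval -0.20 to 1.64), and it was 0.29 without these 2 mice. The E2 minus CON difference was 0.43 ± 0.34 (SE), and it was 0.12 without E2 replicate 1. The same 2 mice were highest in the pan-leukocyte and granulocyte markers, and the part of those cells in the Cd4 values was not tested.

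Cd8a, the coreceptor chain of cytotoxic T cells and of some intraepithelial lymphocytes and dendritic cells, spanned 4.99 to 5.65. It stood at 5.28, 5.03 and 5.65 in MIX, 5.57, 5.19, 5.54 and 5.22 in E2, 4.99, 5.28 and 5.25 in HD, and 5.28, 5.25 and 4.99 in CON. All groups overlapped. It was the one T cell gene with a lower mean in MIX (5.32 ± 0.31 SD, n = 3) than in E2 (5.38 ± 0.20 SD, n = 4). The fitted MIX minus HD difference was 0.23 (95% interval -0.19 to 0.65).

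**Figure D2:**
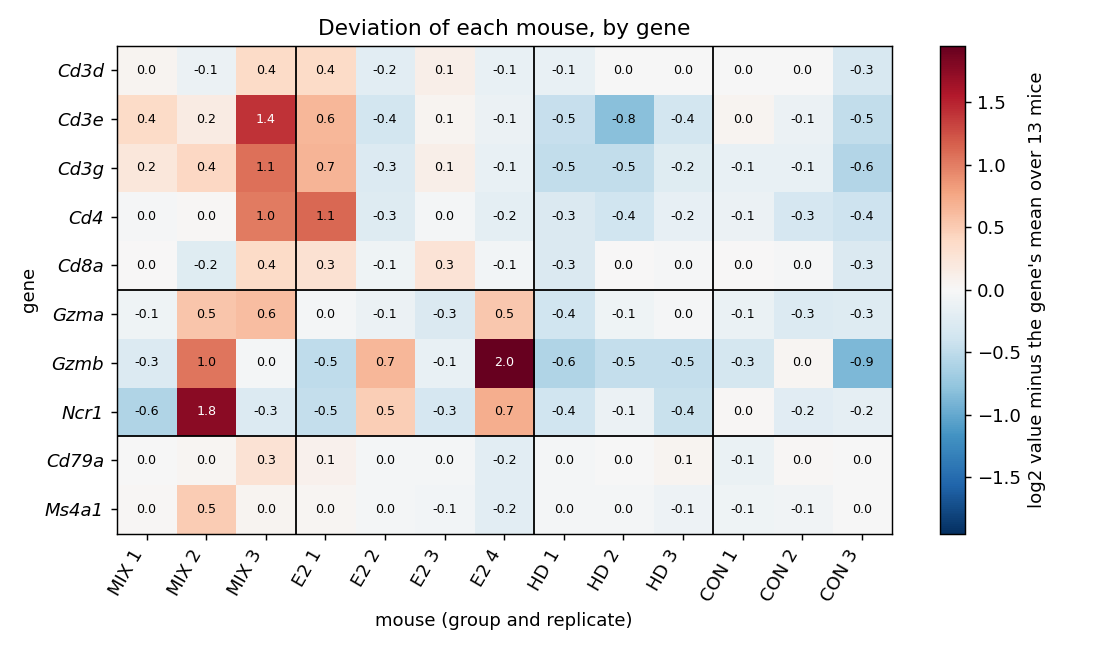
Deviation of each mouse (columns, ordered MIX, E2, HD, CON) from the mean of the gene over all 13 mice (rows), in log2 units, with red above and blue below the mean. MIX replicate 3 and E2 replicate 1 are red across the T cell rows, whereas MIX replicate 2 and E2 replicate 4 are red across the granzyme and Ncr1 rows.

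Gzmb and Ncr1 had their highest values in other mice than the T cell genes, whereas Gzma was high in mice of both kinds. Gzma encodes a tryptase-like granzyme, Gzmb a granzyme that cleaves after aspartate and activates caspases, and Ncr1 the receptor NKp46 of NK cells and related innate lymphoid cells. Upstream sequences of these genes are shown because each holds the RUNX core, with the letters TGTGGT or their reverse complement in capitals. They are RefSeq sequences on GRCm38.p6, 5′ to 3′ on the strand of the gene, at chr13:113100982-113101231 (minus strand) for Gzma, chr14:56262335-56262584 (minus strand) for Gzmb and chr7:4337465-4337714 (plus strand) for Ncr1.
Gzma: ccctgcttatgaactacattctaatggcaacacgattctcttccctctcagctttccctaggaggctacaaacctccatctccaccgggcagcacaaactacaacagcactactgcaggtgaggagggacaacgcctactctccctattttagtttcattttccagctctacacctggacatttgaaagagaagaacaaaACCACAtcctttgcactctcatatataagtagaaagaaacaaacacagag
Gzmb: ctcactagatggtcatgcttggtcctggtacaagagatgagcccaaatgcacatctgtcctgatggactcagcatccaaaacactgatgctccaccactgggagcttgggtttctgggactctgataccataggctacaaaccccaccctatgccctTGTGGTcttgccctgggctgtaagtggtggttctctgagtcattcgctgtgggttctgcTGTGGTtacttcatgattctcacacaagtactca
Ncr1: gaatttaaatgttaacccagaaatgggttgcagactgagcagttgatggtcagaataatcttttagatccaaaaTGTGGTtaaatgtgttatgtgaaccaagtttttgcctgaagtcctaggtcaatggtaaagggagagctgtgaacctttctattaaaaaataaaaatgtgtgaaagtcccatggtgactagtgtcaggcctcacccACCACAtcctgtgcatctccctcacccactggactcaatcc

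The Gzma window holds 1 match, and 2 matches lie in each of the Gzmb and Ncr1 windows. Of the 8 genes with a window in the table, these 3 hold the core within 250 bases upstream, while 14% of 32851 windows of that length hold it. The ETS core GGAAG occurs in 5 of the 8 windows and in 64.1% of all windows. The palindromic estrogen response element occurs in 0 of the 8 windows and in 0.0639% of all windows, and the element core AGGTCA in 1 of the 8 (Ncr1) and in 14% of all windows, both strands searched. A match is a description of letters and not of a bound site. For Cd4 and Ms4a1 no window was used here.

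Gzmb had the widest range of the 10 genes, 2.82 log2 units. It stood at 4.95, 6.25 and 5.17 in MIX, 4.72, 5.86, 5.06 and 7.16 in E2, 4.62, 4.74 and 4.75 in HD, and 4.86, 5.24 and 4.34 in CON. E2 replicate 4, MIX replicate 2 and E2 replicate 2 were the 3 highest mice, and all MIX mice lay above all HD mice. The E2 mean was 5.70 ± 1.08 (SD, n = 4) and the CON mean 4.81 ± 0.45 (SD, n = 3), and the fitted difference of 0.93 ± 0.51 (SE; 95% interval -0.20 to 2.05) had a limma adjusted p of 0.9998. With 1 mouse left out at a time it ran from 0.29 (without E2 replicate 4) to 1.26 (without CON replicate 2). The plain E2 minus CON difference was 0.16 in mice with numbered codes and 2.82 in those with lettered codes, with 1 lettered mouse per group. The fitted MIX minus HD difference was 0.42 ± 0.62 (SE) beside a plain difference of 0.75, and it was 0.02 without MIX replicate 2. With either CON replicate 3 or HD replicate 3 left out it was 0.04 and 0.08.

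Ncr1 was highest in the same 3 mice. It stood at 4.71, 7.06 and 5.02 in MIX, 4.83, 5.78, 4.96 and 6.01 in E2, 4.91, 5.18 and 4.86 in HD, and 5.31, 5.07 and 5.12 in CON. MIX held both the highest and the lowest of the 13 values, and E2 replicates 4 and 2 followed the highest. The MIX mean of 5.60 had an SD of 1.28 (n = 3), so the fitted MIX minus HD difference of 0.47 ± 0.61 (SE; 95% interval -0.89 to 1.83) was smaller than the spread between the MIX mice. Without MIX replicate 2 it turned to -0.26, and the pellet minus no pellet difference averaged over both diets went to -0.01, against 0.36 with it. MIX replicate 2 was also the mouse with the highest endothelial and stromal marker means, and the part of those cells in its Ncr1 value was not tested.

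Gzma exceeded the array's own median in 3 of the 13 mice. It stood at 4.49, 5.12 and 5.17 in MIX, 4.53, 4.46, 4.29 and 5.10 in E2, 4.19, 4.49 and 4.55 in HD, and 4.45, 4.30 and 4.32 in CON. MIX replicates 2 and 3 and E2 replicate 4 were the 3 mice above their medians. All MIX mice were above all CON mice, and MIX overlapped HD. The plain MIX minus CON difference was 0.57 and the fitted one 0.37 ± 0.23 (SE), with a limma adjusted p of 0.7102. The fitted difference was 0.09 without CON replicate 3, and 0.25 and 0.28 without MIX replicates 3 and 2.

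Cd79a, the signalling chain of the B cell receptor, had the narrowest range of the 10 genes, 0.49 log2 units. It stood at 5.08, 5.12 and 5.36 in MIX, 5.16, 5.05, 5.04 and 4.87 in E2, 5.05, 5.08 and 5.14 in HD, and 4.95, 5.10 and 5.08 in CON. The groups overlapped throughout, and the fitted MIX minus HD difference was 0.12 (95% interval -0.12 to 0.36). Ms4a1, which encodes the B cell surface protein CD20, was below the array's own median in all 13 mice. It stood at 3.68, 4.15 and 3.70 in MIX, 3.69, 3.62, 3.60 and 3.44 in E2, 3.62, 3.62 and 3.55 in HD, and 3.57, 3.58 and 3.64 in CON. All MIX mice were above all HD and all CON mice, but MIX replicates 1 and 3 barely so, and MIX replicate 2 stood alone at 4.15. The fitted MIX minus HD difference of 0.30 ± 0.13 (SE; 95% interval 0.00 to 0.60) was 0.14 without MIX replicate 2.

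Of the 8 comparisons, MIX against HD had the largest median difference over the 10 genes. All 10 genes had a fitted difference above 0, against 37.5% of all features, and the median over the genes was 0.37, against -0.04 over all features. Cd3e and Cd3g had an unadjusted p under 0.05 in the upward direction, 2 of 10 genes, against 2.41% of all features. In 5 genes (Cd3e, Cd3g, Cd4, Gzmb and Ms4a1) every MIX mouse was above every HD mouse, which was so for 3.47% of all features. Leaving out 1 mouse at a time moved the fitted difference by over 1.5 times in 8 of the 10 genes, all but Cd3e and Cd3g.

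For the pellet on chow, E2 against CON, 8 of 10 genes had a fitted difference above 0 (46.5% of all features), with a median of 0.24 against -0.01 over all features. The differences ran from -0.01 for Cd79a and Ms4a1 to 0.93 for Gzmb. In none of the 10 genes was every E2 mouse above every CON mouse (3.01% of all features), and 0 genes had an unadjusted p under 0.05 (4.02% of all features). E2 replicate 1 was above all CON mice in all 5 T cell genes, and E2 replicate 4 in all 3 cytotoxic genes.

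With both diets averaged, pellet minus no pellet gave a difference above 0 in all 10 genes (38.9% of all features). Cd3e differed by 0.75 ± 0.24 (SE; 95% interval 0.22 to 1.29) with a limma adjusted p of 0.3718. Cd3g differed by 0.72 ± 0.19 (SE; 95% interval 0.30 to 1.15) with a limma adjusted p of 0.3068. These were the 2 genes with an unadjusted p under 0.05 in the upward direction (3.73% of all features). Among the 7 mice with a pellet, 5 were above all 6 mice without one in Cd3e and in Cd3g, and no gene separated all pellet mice from all others (0.344% of all features). Gzmb differed by 0.67 ± 0.39 (SE) and Cd4 by 0.58 ± 0.26 (SE), both with intervals that include 0. The Gzmb difference was 0.21 without CON replicate 3, and the Cd4 difference was 0.37 without E2 replicate 1.

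**Figure D3:**
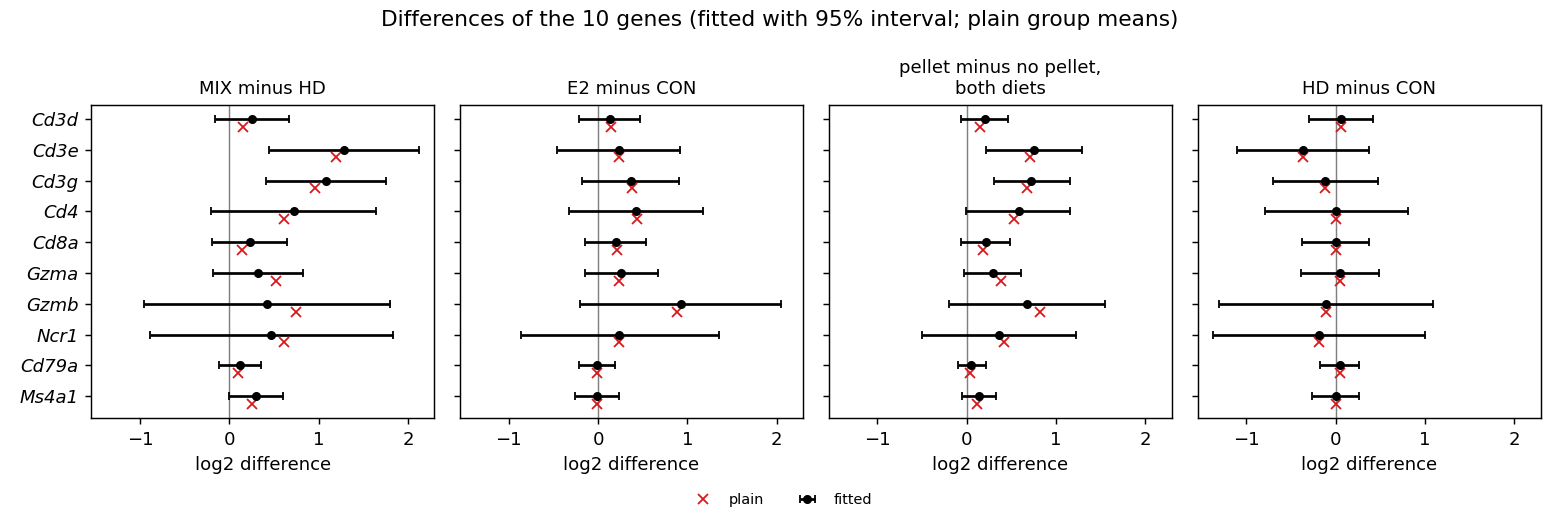
Differences of the 10 genes in log2 units for MIX minus HD, E2 minus CON, pellet minus no pellet averaged over both diets, and HD minus CON. Black points are fitted differences with their 95% interval and red crosses are plain differences of group means. The intervals of Cd3e and Cd3g lie above 0 in MIX minus HD and in the averaged pellet comparison, and all HD minus CON intervals include 0.

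No difference between the high-fat diet alone and the control was shown for these genes, and several intervals were wide. In HD against CON the fitted differences ran from -0.36 (Cd3e) to 0.06 (Cd3d), 6 of 10 genes were above 0 (57.2% of all features), and 0 had an unadjusted p under 0.05 (2.91% of all features). The interval for Cd3e, -1.10 to 0.37, does not exclude a difference in either direction. Nor do those for Gzmb, -1.31 to 1.09, and Ncr1, -1.37 to 1.00. In HD the 3 values of Gzmb lay within 0.13 of each other, against 0.90 in CON.

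Under the pellet, MIX against E2 compares the diets. Of the 10 genes, 9 had a fitted difference above 0 (43.7% of all features), from -0.62 for Gzmb to 0.69 for Cd3e (SE 0.37), which was 0.31 without MIX replicate 3. Only Ms4a1 had an unadjusted p under 0.05 upward (1.25% of all features), with a difference of 0.31 ± 0.13 (SE) and a limma adjusted p of 0.9999. No gene separated MIX from E2 in all mice (1.5% of all features). The mice highest in leukocyte markers were also left out, a choice made after seeing the data. Without them, Cd3e, Cd3g, Cd4, Cd79a and Ms4a1 separated MIX from E2, with 2 MIX and 3 E2 mice (5.96% of all features). The E2 mouse left out, replicate 1, was the highest E2 mouse in each of these genes. The separation therefore depends on leaving it out and is no support for a difference. Averaged over both pellet states, the high-fat diet minus chow difference was above 0 in 8 of 10 genes (50.7% of all features), and 0 genes had an unadjusted p under 0.05 (3.36% of all features). MIX against CON, which shares its MIX mice with MIX against HD, gave 10 of 10 fitted differences above 0 (42.5% of all features). Of these, 2 had an unadjusted p under 0.05 upward (3.7% of all features), Cd3e at 0.92 ± 0.38 (SE; 0.54 without MIX replicate 3) and Cd3g at 0.96 ± 0.30 (SE). In 5 genes (Cd3e, Cd3g, Cd4, Gzma and Ms4a1) all MIX mice were above all CON mice (5.52% of all features).

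Whether the pellet difference depended on the diet was tested as an interaction, the MIX minus HD difference minus the E2 minus CON difference. It was 1.05 ± 0.50 (SE; 95% interval -0.05 to 2.16) for Cd3e, 0.71 ± 0.40 (SE; 95% interval -0.17 to 1.59) for Cd3g and -0.50 ± 0.81 (SE) for Gzmb, with limma adjusted p = 0.9998 for each. No gene had an unadjusted p under 0.05 (2.1% of all features). The Cd3e value was 0.675 and the Cd3g value 0.46 without MIX replicate 3. The pellet difference in Cd3e was thus larger on the high-fat diet than on chow in these mice, but was not shown to differ between the diets.

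From mouse to mouse some of the genes ran together, although not in cleanly separate sets. Correlations were computed for all 45 pairs of genes over the 13 mice, with permutation p-values adjusted over the 45 pairs. All 10 pairs among the 5 T cell genes passed the threshold of 0.05 by Pearson's r (0.691 to 0.958), and 5 of them by Spearman's rho. Of the 15 pairs of a T cell gene with a cytotoxic or NK gene, 0 passed by either measure, with r from -0.413 to 0.601. The 3 pairs among Gzma, Gzmb and Ncr1 had r from 0.597 to 0.760, of which 2 passed by r and 0 by rho. The 10 pairs of a T cell gene with a B cell gene had r from -0.177 to 0.646. The 6 pairs of a cytotoxic or NK gene with a B cell gene had r from -0.361 to 0.590. Cd79a and Ms4a1, the B cell pair, had r = 0.391. None of the pairs with a B cell gene passed by either measure.

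Cd3e and Cd3g had the closest relation, with r = 0.958 and rho = 0.979 (permutation p = 1e-05 for each, the smallest that the permutations can give; adjusted p = 0.000225 and 0.0003). Without the 2 mice farthest from the Cd3e median, E2 replicate 1 and MIX replicate 3, r was 0.886. It was 0.944 in the 7 mice with numbered codes and 0.963 in the 6 with lettered codes, and 0.930 for deviations from the group means. Cd3d and Cd8a had r = 0.914 and rho = 0.913 (permutation p = 2e-05 for each, adjusted p = 0.0003), and r = 0.827 without the same mice. These and the pairs of Cd4 with Cd3e and with Cd3g were the 4 of the 10 T cell pairs whose r stayed at 0.827 to 0.911 without those mice. In the other 6 pairs r was 0.266 to 0.475 without them, so those relations rest on E2 replicate 1 and MIX replicate 3. These 6 were Cd3d with Cd3e, Cd3g and Cd4, and Cd8a with Cd3e, Cd3g and Cd4. Gzmb and Ncr1 had r = 0.760 (permutation p = 0.00974, adjusted p = 0.0398) and rho = 0.549 (permutation p = 0.0551, adjusted p = 0.177). Their r was 0.601 without E2 replicate 4 and MIX replicate 2, 0.793 in the numbered and 0.735 in the lettered mice. Cd3e and Ncr1 had r = -0.079 and rho = -0.228 (permutation p = 0.78 and 0.452, adjusted p = 0.836 and 0.544).

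**Figure D4:**
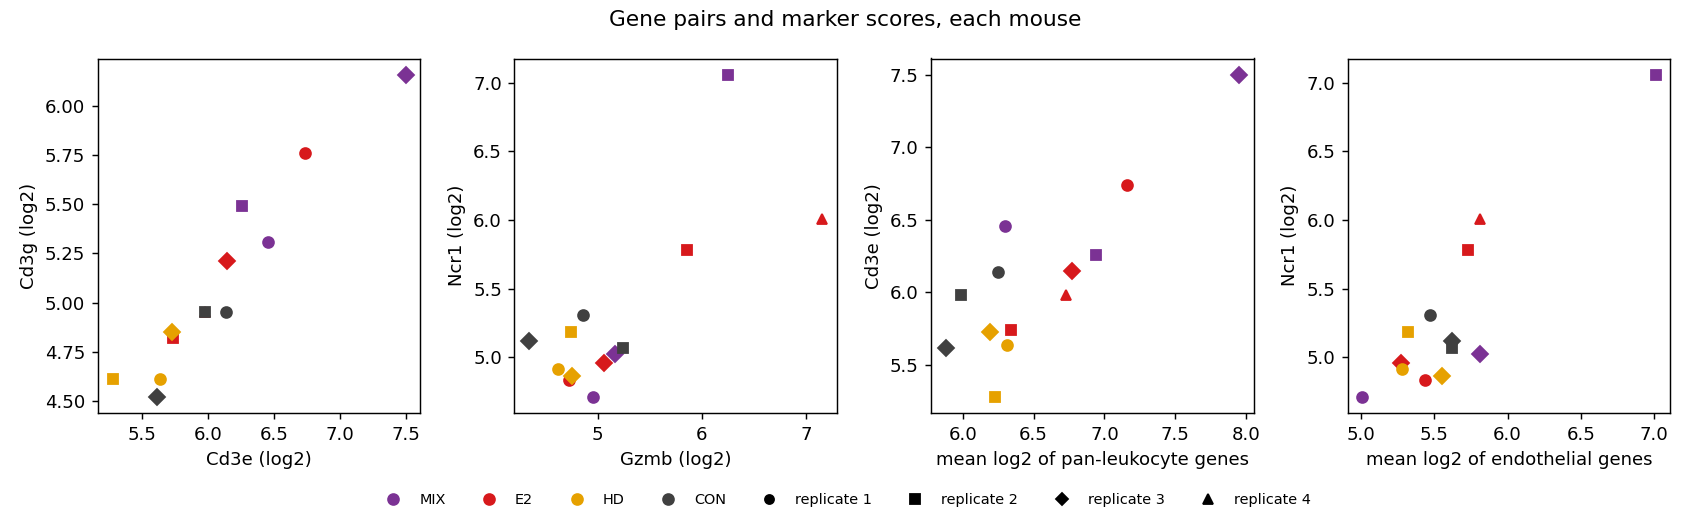
Values of each of the 13 mice (colour for group, symbol for replicate): Cd3g against Cd3e, Ncr1 against Gzmb, Cd3e against the mean of 14 pan-leukocyte genes, and Ncr1 against the mean of 11 endothelial genes, all in log2 units. MIX replicate 3 is the highest in Cd3e (7.50) and in the pan-leukocyte mean (7.95), and MIX replicate 2 is the highest in Ncr1 (7.06) and in the endothelial mean (7.01).

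The genes whose pattern over the 13 mice was most like that of each gene are given as a description, by Pearson's r over all genes with 1 symbol. As the highest of many genes over few mice, these r values are high by selection. The chemokine receptor gene Cxcr6, which marks tissue-resident T and NKT cells, was among the nearest to both Cd3e (r = 0.956) and Cd3g (r = 0.972), at 0.910 and 0.926 without the 2 mice farthest from the median. Prss22, a serine protease gene, had r = 0.957 with Cd3e, and Plk3 had r = 0.949. Tcea3 (r = 0.958) and Glrx (r = 0.952) were the others nearest to Cd3g. Cd5, a T cell surface glycoprotein, was nearest to Cd3d (r = 0.953), followed by the lymphotoxin gene Ltb (r = 0.934) and Ncf4, an oxidase subunit of phagocytes (r = 0.925). Il23r, the receptor chain for interleukin 23, was nearest to Cd4 at 0.977, level with the coagulation factor gene F10 at 0.976 and the macrophage elastase gene Mmp12 at 0.972. Without E2 replicate 1 and MIX replicate 3 these were 0.648, 0.644 and 0.688. Trem3, a receptor of mouse myeloid cells, was nearest to Cd8a (r = 0.936), followed by Otop2 (r = 0.934) and Cela1 (r = 0.929). Pcdhb9, a protocadherin, was nearest to Gzma (r = 0.944), followed by Plod1 (r = 0.925) and Scin (r = 0.924). Idh1, the cytosolic isocitrate dehydrogenase, was nearest to Cd79a (r = 0.881), followed by Dpp6 (r = 0.870) and Ighv5-6 (r = 0.869).

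For Gzmb and Ncr1 the nearest patterns included genes of NK cells beside others, such as Runx1t1 with Ncr1 (r = 0.973). Klra3, a receptor of the Ly49 family on NK cells, and Maob, a monoamine oxidase, each had r = 0.981 with Ncr1, at 0.944 and 0.933 without the 2 farthest mice. Gzmc, a neighbouring granzyme gene, had r = 0.909 with Gzmb, and Xcl1, a chemokine made by NK and activated T cells, had r = 0.884. Granzyme genes are similar in sequence, and how much Gzmb and Gzmc probes share signal was not tested. Hhip, a hedgehog-binding protein, had r = 0.905 with Gzmb and 0.469 without E2 replicate 4 and MIX replicate 2.

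Other genes of the same cells were examined as lists, given as counts with 0 genes passing the test in any lymphocyte list. Beside these counts, 37.5% of all features had a MIX minus HD difference above 0, with a median of -0.04. Of 18 further genes of the T cell receptor complex and its signalling, 16 were measured, and all 16 had a MIX minus HD difference above 0, with a median of 0.26. Those with the smallest unadjusted p were Lcp2, an adaptor of receptor signalling also used in myeloid cells, at 1.29 ± 0.58 (SE; means 7.50 in MIX and 6.35 in HD), and Cd8b1, the partner chain of Cd8a, at 0.72 ± 0.32 (SE; means 5.89 in MIX and 5.31 in HD). Among 16 measured genes of T cell subsets and regulation, 15 were above 0, with a median of 0.25. Cxcr6 differed by 1.95 ± 0.50 (SE; means 5.71 in MIX and 3.92 in HD; limma adjusted p = 0.5848), and the interleukin 7 receptor gene Il7r by 1.42 ± 0.66 (SE; means 5.38 in MIX and 4.28 in HD). In both genes all MIX mice were above all HD mice, which was so for 3.47% of all features. Both are named because they had the smallest unadjusted p of the list. Of 6 measured genes of γδ T and innate lymphoid cells, 5 were above 0. Zbtb16, a transcription factor of innate-like T cells, differed by 0.75 ± 0.38 (SE), whereas Sox13, a transcription factor of γδ T cells that other tissues also express, differed by -0.31 ± 0.15 (SE).

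Among 18 measured NK cell receptor and regulator genes, 16 were above 0 in MIX minus HD, with a median of 0.36. Fcgr3, an antibody receptor of NK cells that macrophages and granulocytes also carry, differed by 1.62 ± 0.57 (SE; means 8.73 in MIX and 7.27 in HD), and all pellet mice were above all mice without one. Il2rb, a cytokine receptor chain of NK and T cells, differed by 1.08 ± 0.42 (SE; means 7.24 in MIX and 6.11 in HD). The 12 measured cytotoxic granule genes were split, 8 above 0 and 4 below, with a median of 0.14. Srgn, the granule proteoglycan that many leukocytes and endothelial cells make, differed by 1.12 ± 0.28 (SE; limma adjusted p = 0.5798), and Ctsc, the protease that activates granzymes, by 0.83 ± 0.30 (SE). In both genes every mouse with a pellet was above every mouse without one, a pattern found in 0.344% of all features. These genes and Fcgr3 are named for the smallest unadjusted p of their lists in MIX minus HD. The pellet comparison shares those mice, so this choice favours the separation, which is no support for a difference.

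Of 19 measured B lineage genes, 17 were above 0 in MIX minus HD, with a median of 0.21. Cd37, a tetraspanin of B cells and other leukocytes, differed by 0.89 ± 0.31 (SE). Blk, a B cell kinase that some T cells also use and that was counted in the γδ T list too, differed by 0.25 ± 0.13 (SE). Of 10 measured plasma cell genes, 9 were above 0, with a median of 0.41. Jchain, the joining chain of secreted antibodies, differed by 1.84 ± 0.67 (SE; means 6.51 in MIX and 4.49 in HD), and in E2 minus CON by 0.07 ± 0.55 (SE; means 5.58 in E2 and 5.53 in CON). The HD mice were thus below the CON mice in the mean of Jchain. All 10 plasma cell genes had an HD minus CON difference below 0, with a median of -0.13, while 57.2% of all features were above 0. In MIX minus CON, 7 of the 10 were above 0 (42.5% of all features), with a median of 0.31. Prdm1, a transcription factor of plasma cells that effector T cells and squamous epithelium also express, differed by 1.56 ± 0.30 (SE; means 7.29 in MIX and 5.59 in HD; limma adjusted p = 0.3759). Of 21 measured chemokines and survival factors for lymphocytes, 14 were above 0, with a median of 0.37. Il15, which sustains NK cells, differed by 0.70 ± 0.23 (SE; means 6.16 in MIX and 5.31 in HD), and Tnfsf13b, which sustains B cells, by 0.59 ± 0.20 (SE; means 6.23 in MIX and 5.57 in HD).

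Most markers of leukocytes, stroma and endothelium also had MIX minus HD differences above 0, although not every MIX mouse ran high. In MIX minus HD, 13 of 14 pan-leukocyte markers were above 0 with a median of 0.94, and their mean level per mouse ran from 6.30 to 7.95 in MIX, 6.34 to 7.16 in E2, 6.19 to 6.31 in HD and 5.88 to 6.25 in CON. Macrophage markers were above 0 in 14 of 15, with means per mouse of 7.20 to 8.32 in MIX, 7.24 to 7.65 in E2, 7.05 to 7.09 in HD and 6.42 to 6.71 in CON. Granulocyte and mast cell markers were above 0 in 14 of 18, with means of 5.13 to 6.73 in MIX, 4.92 to 5.99 in E2, 4.68 to 4.84 in HD and 4.50 to 4.65 in CON, and 6 of the 18 lay below the array median even in MIX. All 10 measured squamous epithelium markers were above 0 with a median of 2.07, and 1 of them (Trp63) passed the test in MIX against HD. Stromal markers were above 0 in 11 of 11, with a median of 0.65, and endothelial markers in 9 of 11, with a median of 0.47, both medians above that of the 10 lymphocyte genes. MIX replicate 1 was nevertheless below every HD mouse in both list means. Its stromal mean was 7.98 against at least 8.12 in HD, and its endothelial mean 5.01 against at least 5.28. Epithelial markers were split, 6 of 12 above 0 with a median of -0.004, and 1 of 9 smooth muscle markers was above 0, with a median of -0.07. Red cell genes had 2 of 8 listed genes measured, of which Alas2 passed it. The part of any of these cells in the lymphocyte gene values was not tested.

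**Figure D5:**
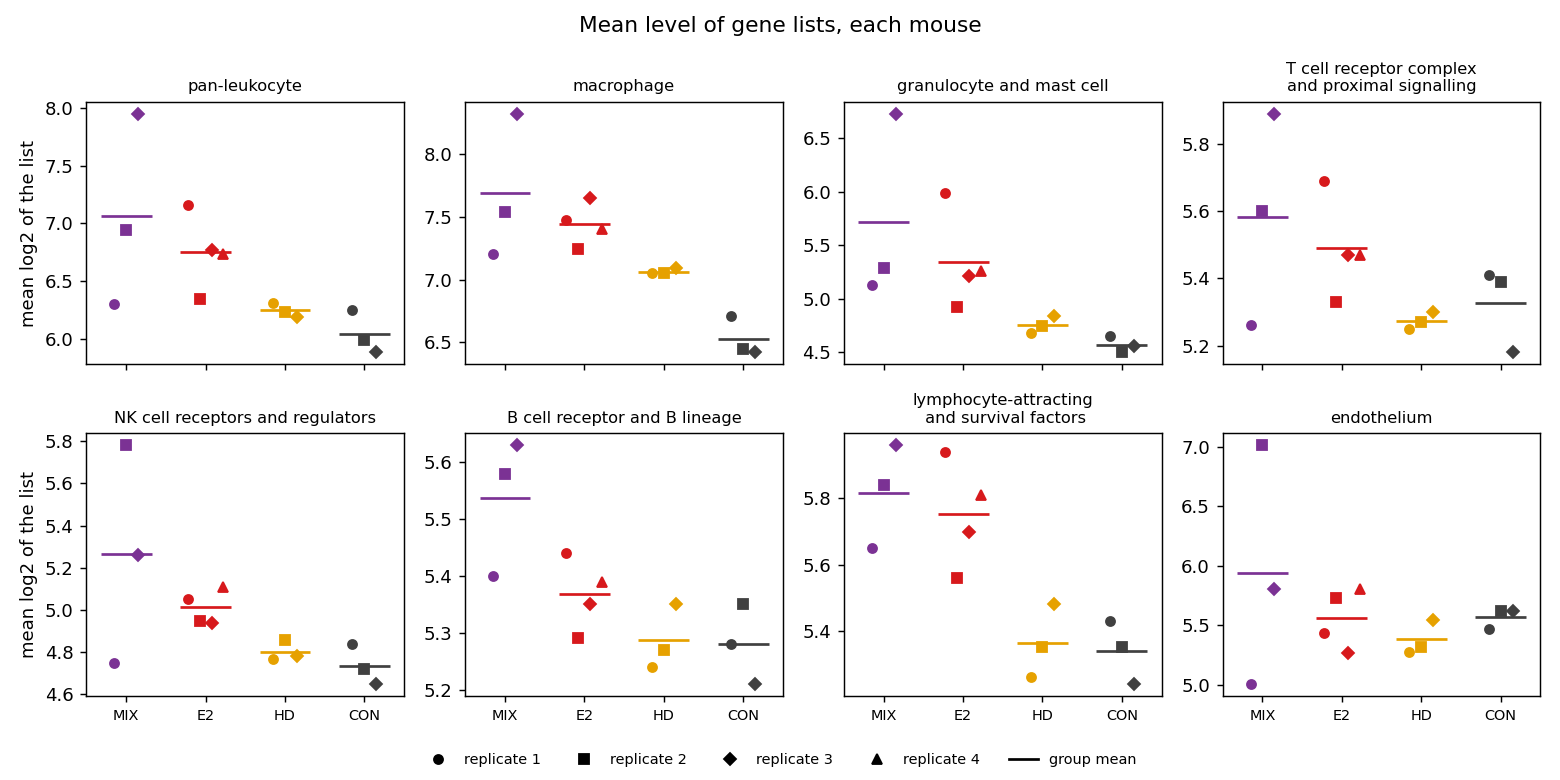
Mean log2 level of 8 gene lists in each mouse, with MIX, E2, HD and CON from left to right, symbols for replicates and lines for group means. MIX replicate 3 and E2 replicate 1 are the highest points in the pan-leukocyte and granulocyte panels (7.95 and 7.16, 6.73 and 5.99), and MIX replicate 2 is the highest in the NK cell (5.78) and endothelial (7.01) panels.

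The mean level of the 18 NK genes was 4.75, 5.78 and 5.26 in the MIX mice, 5.05, 4.95, 4.94 and 5.11 in the E2 mice, 4.77, 4.86 and 4.78 in the HD mice and 4.84, 4.72 and 4.65 in the CON mice. Of these 18 genes, 8 had a group mean below the array median in MIX, and 10 in each of E2, HD and CON. The list mean also includes Fcgr3, which macrophages and granulocytes carry too, and the part of those cells in it was not tested. All E2 mice were above all CON mice in the list mean, whereas MIX replicate 1 was below every HD mouse. That mouse also had the lowest Ncr1 value and the lowest endothelial marker mean, 5.01, of the 13. The mean of the 16 T cell receptor list genes was 5.26, 5.60 and 5.89 in MIX, 5.69, 5.33, 5.47 and 5.47 in E2, 5.25, 5.27 and 5.30 in HD and 5.41, 5.39 and 5.18 in CON, so that MIX replicate 1, which was above all HD and CON mice in Cd3e, lay within the HD range in these genes.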

How the data were processed

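RNA of scraped endometrium was hybridised to Affymetrix arrays, 1 array per mouse, from 250 ng of total RNA per the labels' protocols. The authors deposited log2 values per feature; the submitters' processing notes name RMA as the method and state no version, array library or filter. RMA treats all arrays together and compresses differences of dim features. Precision is limited by the number of arrays.

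Gene symbols came from the array's annotation table, with 827 symbols updated by Entrez identifier. Of 65929 features, 30604 carried 1 symbol, 2146 several and 33179 none. All features entered 1 fit over the 13 mice (limma 3.58.1 in R 4.3.3, lmFit and eBayes), with a coefficient per group and the code style of the sample titles as covariate, and 8 residual degrees of freedom. Tests were two-sided and adjusted by Benjamini-Hochberg over all features, with a threshold of 0.05. The scripts were checked on simulated data. Correlations between genes used 100000 permutations (scipy 1.17.1). The labels do not say whether mice shared a cage or batch. The p-values treat the mice as independent, and they could be too small if mice shared either.

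The 10 genes and all lists were chosen with earlier results of these data known. Of 285 list entries (19 lists beside the 10 genes), 254 had a feature of their own. From the lymphocyte lists the text names the genes with the smallest unadjusted p in MIX minus HD, from any list those past the threshold, and for each of the 9 genes above the array median in at least 1 group the genes most correlated with it. Promoter windows were taken from RefSeq (GRCm38.p6).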

Additional observations from a re-analysis of the deposited data

Results flagged for a closer look

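Cd4 in the E2 mice was flagged because 1 mouse lay far from the others. E2 replicate 1 stood at 6.05, and the remaining E2 mice at 4.67, 4.88 and 4.74. Its gap to the nearest mouse was 0.849 of the group's whole range, above Dixon's 95% critical value for 4 samples. The E2 groups of the 10 genes were tested in this way, and chance flags about 1 in 20 groups. The mouse also had the highest pan-leukocyte marker mean of the E2 mice, 7.16, and the part of those cells in the Cd4 value was not tested.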

How the results depend on the processing

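None of the 10 genes passed the threshold under any alternative in any of the 8 comparisons. Over 49 gene differences, 1074 alternative values were computed, of which 1040 kept their direction and 34 turned it. Cd3e and Cd3g kept a MIX minus HD difference above 0 throughout, at 0.84 to 1.61 and 0.77 to 1.41, with adjusted p of at least 0.197 and 0.2008. With the replicate block and the code style, differences turned for Cd79a (0.032) and Ms4a1 (0.087) in E2 minus CON, for Gzmb in MIX minus E2 (0.230) and for the Gzmb interaction (0.340). With array weights they turned for Cd79a in E2 minus CON (0.005), for Gzmb (-0.235) and Ncr1 (-0.198) in MIX minus CON, and for Gzmb (-0.106) and Ncr1 (-0.089) in MIX minus HD. With each array centred on its median, Cd79a (0.009) and Ms4a1 (0.008) turned in E2 minus CON. In numbered mice only, E2 minus CON turned for Ncr1 (-0.002), Cd79a (0.061) and Ms4a1 (0.063). In lettered mice only, with 1 mouse per group, HD minus CON turned for Cd3e (0.113), Cd3g (0.335) and Gzmb (0.408). Without the mice highest in leukocyte markers, an alternative chosen after seeing the data, the averaged pellet difference of Cd79a turned (-0.015). The cause of these turns was not tested.

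Leaving out 1 mouse at a time moved 44 of the 49 gene differences by over 1.5 times or turned them, Cd3e and Cd3g in MIX minus HD and in the averaged pellet comparison being among the 5 that it did not. It turned some differences near 0. The ranges were -0.022 to 0.416 for Ncr1, -0.070 to 0.064 for Cd79a and -0.043 to 0.048 for Ms4a1 in E2 minus CON, and -0.701 to 0.211 for Gzmb in HD minus CON. In MIX minus CON they were -0.657 to 0.855 for Gzmb and -0.445 to 0.730 for Ncr1. They were -1.040 to 0.563 for Gzmb in MIX minus E2, -0.261 to 0.913 for Ncr1 in MIX minus HD, -0.008 to 0.579 for Ncr1 in the averaged pellet difference, and -0.942 to 0.673 for the Gzmb interaction.

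The number of features past the threshold depended more on the setting. In MIX minus CON it was 2, but 15 without the code style, 27 with it as a random block, 0 with the replicate block, 11 over features above the array median in at least 3 mice, 13 with array weights, 5 with centred arrays and 0 to 89 when 1 mouse was left out. In MIX minus HD it was 3, but 12, 15, 0, 5 and 7 under the first 5 of these and 0 to 80 when 1 mouse was left out. In MIX minus E2 it was 0, but 1 without the code style, 1 with the random block, 1 without the mice highest in leukocyte markers and 0 to 24 when 1 mouse was left out. In the averaged pellet comparison it was 11, but 0 with the replicate block, 7 with the trended robust fit, 0 without the mice highest in leukocyte markers and 0 to 224 when 1 mouse was left out, the highest being without MIX replicate 1. In the averaged diet comparison it was 0, but 1 with array weights, 1 without the mice highest in leukocyte markers and 0 to 3 when 1 mouse was left out, and for the interaction 0 to 2. Prdm1 in MIX minus HD passed under 1 of 21 alternatives, and the other named list genes under 0 of 21.

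Whether replicate numbers in the titles pair the mice was not settled. The same number joins mice with numbered codes and mice with lettered codes. Over 18 pairs of mice with the same number, the correlations of deviations from the group means ran from -0.261 to 0.310, and 5 were over 0.1. Pairs of mice with different numbers were not computed for comparison. The alternative of averaging all features of a gene could not be run, since each gene has 1 feature. Brightness limits Ms4a1 and Gzma most, which lay below the array median in 13 and 10 of the 13 mice. Cd3g and Cd4 were above it in 10 mice and Gzmb in 11, and the mice below it were HD or CON mice. The differences of these genes therefore also rest on values near the array median.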
